A study of Mus musculus with 8 samples.

Results

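The serine and one-carbon folate enzymes described here are 9 genes, Phgdh, Psat1, Psph, Shmt1, Shmt2, Mthfd1, Mthfd2, Mthfd1l and Tyms. They were taken from the table of 27179 genes by their symbol, and all 9 passed the filter on low values that 12605 genes passed (a mean of at least 0.5 RPKM over the libraries). RPKM is the reads of a gene scaled by the length counted for that gene and by the total of the library. The study asked how exposure to cadmium (Cd) before birth changes splenic CD4+ T cells of the offspring. Messenger RNA was sequenced in 8 libraries, 2 for each combination of exposure and stimulation. Parents of the strain C.Cg-Foxp3tm2Tch/J, which carries a fluorescent reporter in the Foxp3 gene, drank water with 10 ppm CdCl2 during mating and the mothers throughout pregnancy, and control parents drank water without it. Normal water replaced the Cd water soon after birth, and cells were taken at 8 weeks of age. CD4+ T cells were enriched by negative selection and sorted, and RNA was made either from unstimulated cells (0 hours) or after 16 hours with beads that carry antibodies to CD3 and CD28. The 4 groups are therefore unstimulated and stimulated cells of control offspring and unstimulated and stimulated cells of Cd offspring, and the 2 libraries of each group carry the replicate numbers 6 and 7. By the paper's methods, cells were either lysed at once or cultured with beads, and no library came from cells cultured without beads. Stimulation below thus means the beads and the time in culture together. The part of culture alone was not tested. The labels do not say whether each library came from a separate animal, so the p values below measure the spread between these libraries.

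Cells make serine from phosphoglycerate, an intermediate of glycolysis, in the steps that Phgdh, Psat1 and Psph catalyse. The serine hydroxymethyltransferases Shmt1 in the cytosol and Shmt2 in mitochondria then pass a carbon of serine to folate and release glycine, and the Mthfd enzymes interconvert the folate carbon units, which are used to build purines and, through Tyms, thymidylate. T cells that leave the resting state and prepare to divide are known to need serine and these carbon units.

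The promoters of the members were compared because all 9 genes rose with stimulation, though by different folds, as described below. RefSeq windows of build GRCm38.p6, 250 bases before to 50 bases after each start, were found for all 9 members, with 2 windows for Psat1. Their GC content ran from 42.7% for Shmt2 to 66.7% for the Psat1 window at the more internal start. The 250 bases before the start are printed 5′ to 3′ on the gene's strand for 4 members, the 3 with the largest response to stimulation and Tyms, whose window was the only one with an E-box. Capitals mark matches, on either strand, to the E-box CACGTG, the GC box GGGCGG, the CCAAT box CCAAT and the NRF1-type motif GCGCATGC.
Shmt1 (chr11:60811266-60811515, minus strand): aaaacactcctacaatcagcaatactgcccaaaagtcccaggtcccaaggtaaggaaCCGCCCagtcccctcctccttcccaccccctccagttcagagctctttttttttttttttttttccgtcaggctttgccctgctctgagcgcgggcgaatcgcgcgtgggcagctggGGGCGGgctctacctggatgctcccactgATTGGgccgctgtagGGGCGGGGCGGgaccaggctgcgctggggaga
Psat1 (chr19:15925060-15925309, minus strand): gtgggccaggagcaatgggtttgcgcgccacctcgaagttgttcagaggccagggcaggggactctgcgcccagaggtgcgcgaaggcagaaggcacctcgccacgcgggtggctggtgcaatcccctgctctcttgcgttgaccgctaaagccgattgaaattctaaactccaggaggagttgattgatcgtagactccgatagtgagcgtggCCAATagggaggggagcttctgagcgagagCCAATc
Shmt2 (chr10:127522445-127522694, minus strand): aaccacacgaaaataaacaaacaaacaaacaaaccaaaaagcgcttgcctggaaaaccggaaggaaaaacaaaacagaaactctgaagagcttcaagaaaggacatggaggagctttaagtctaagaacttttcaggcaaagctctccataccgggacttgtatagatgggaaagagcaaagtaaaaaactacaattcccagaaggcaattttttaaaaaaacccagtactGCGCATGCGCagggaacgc
Tyms (chr5:30073626-30073875, minus strand): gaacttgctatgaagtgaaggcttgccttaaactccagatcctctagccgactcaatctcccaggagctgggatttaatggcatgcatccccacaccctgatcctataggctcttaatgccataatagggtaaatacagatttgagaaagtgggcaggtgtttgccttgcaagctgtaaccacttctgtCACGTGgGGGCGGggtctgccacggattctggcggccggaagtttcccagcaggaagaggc

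Shmt1 has 4 GC boxes, 2 of which overlap, and 1 CCAAT box, Psat1 has 2 CCAAT boxes in the printed stretch, and the NRF1-type motif of Shmt2 is matched on both strands by the same 10 bases. Over the whole windows, the GC box was found in 6 of the members' 10 windows and in 35.7% of 32851 windows of that length. The 6 belong to 6 of 9 members (Shmt1, Mthfd1, Mthfd1l, Psat1, Psph and Tyms), for Psat1 only at the more internal start. The CCAAT box was also found in 6 of 10 windows, against 37.4% of all windows. These belong to 6 of 9 members (Shmt1, Mthfd1, Mthfd2, Phgdh, Psat1 and Psph). The E-box, the motif bound by Myc and related factors, was found in Tyms alone, 61 bases before the start and next to a GC box, and in 7.15% of windows. The NRF1-type motif was found in Shmt2 alone and in 2.71% of windows. No member's window held the ATF4-type motif TGATGNAA (3.97% of windows) or the E2F-type motifs TTTGGCGC (0.514%) and TTTCCCGC (1.07%). The windows of Mthfd2 (chr6:83317555-83317854) and Mthfd1 (chr12:76254982-76255281) lie wholly inside the gene spans given below. The outer 5′ ends of those 2 spans were not searched. These are matches of letters and not measured binding.

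The libraries held 15542732 to 25486791 reads counted on genes, as recovered from the steps between low values. The 2 libraries of a group correlated with r of 0.983 to 0.990 across genes. Summed T cell markers stood at 2128 to 2289 RPKM in unstimulated and 1497 to 1546 RPKM in stimulated cells, while the 6 activation markers rose in both kinds of offspring. Of the defining markers of other cells, Ms4a1 (B cells), S100a8 and Cd14 (myeloid cells) and the haemoglobin genes Hba-a1 and Hba-a2 were at 0 in all libraries. Others were read, and some changed with stimulation alongside the enzymes. The B cell markers summed to 250.8 to 278.6 RPKM in unstimulated and 114.1 to 118.3 RPKM in stimulated cells, nearly all of it Ighm, which was called lower, while Cd79a was read at 2.87 to 4.73 RPKM. The 7 myeloid markers summed to 6.23 to 7.83 and 3.22 to 4.31 RPKM, mostly Cd68 (2.75 to 5.77 RPKM), and Itgam was called lower (log2 -2.27 in control and -2.03 in Cd offspring). The 6 CD8 and NK cell markers summed to 27.5 to 31.1 and 15.3 to 16.9 RPKM, with Cd8b1 at 9.40 to 11.7 and Cd8a at 0.0581 to 0.160 RPKM. Of these, Klrd1 (log2 -1.70 in control and -1.42 in Cd offspring) and Klrb1c (-3.83 and -3.62) were called lower. The erythroid markers summed to 0.365 to 1.72 and 1.04 to 1.38 RPKM, nearly all of it Alas2. The study describes the sequenced cells of control offspring as CD4+ and CD25-negative. The 4 regulatory T cell markers summed to 14.6 to 20.4 RPKM in unstimulated and 50.9 to 60.9 RPKM in stimulated cells. Among them Foxp3 was read at 4.48 to 7.69 RPKM. Ctla4 was called higher (log2 2.35 in control and 2.39 in Cd offspring), and the other 3 were not called. The part of these transcripts in the response of the enzymes was not tested. Xist was read at 49.3 to 67.1 RPKM in all libraries and 4 Y-linked genes at no more than 0.0105 RPKM. These are the values of female cells. Cells of male offspring, which the paper also studied with other assays, were not seen in these libraries. In bulk samples, fewer cells of a type and less RNA per cell cannot be told apart, and RPKM gives no change in the total RNA of a cell.

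All 9 enzymes were higher in stimulated than in unstimulated cells of both kinds of offspring. Only the stimulated cells had been cultured, so these changes include any effect of culture itself. The test was limma on log2(RPKM + 0.1), with Benjamini-Hochberg adjusted p over the 12605 genes, and a change counted as called when it exceeded 2-fold with an adjusted p below 0.01. In control offspring 9 of 9 enzymes were called higher, against 11.5% of all genes tested called higher and 7.17% called lower. In Cd offspring 8 of 9 were called higher, all but Psph, against 11.4% of genes called higher and 7.24% called lower. For each of the 9, the lower stimulated library stood above the higher unstimulated one, which 46.0% of all genes did in control and 44.7% in Cd offspring. The median change of the enzymes was 1.78 on the log2 scale in control and 1.69 in Cd offspring, where the median over all genes was 0.07 and 0.05. The 9 genes together took 0.0308% to 0.0322% of the reads of the 4 unstimulated libraries and 0.107% to 0.114% of those of the 4 stimulated libraries.

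**Figure D1:**
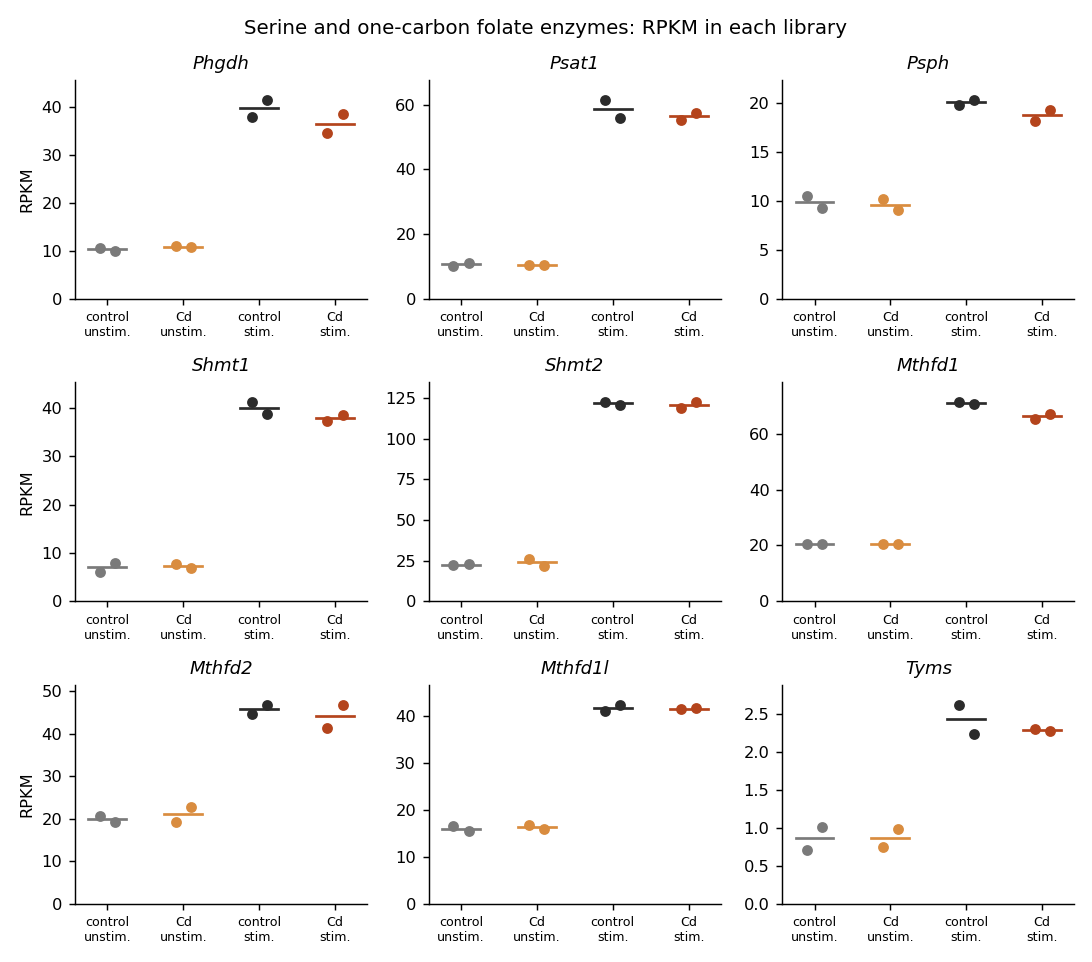
RPKM of each enzyme (vertical axis, starting at 0) in the 4 groups, with a point for each library and a bar at the mean of the 2 libraries. For every enzyme the 4 stimulated libraries lie above the 4 unstimulated libraries, while the control and Cd points of 1 condition lie close together.

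The serine synthesis enzymes stood at nearly the same level in unstimulated cells and at 3 different levels in stimulated cells. Phgdh (chr3:98313171-98339969), the dehydrogenase of the first committed step, was read at 10.6 and 10.0 RPKM in unstimulated cells of control offspring and at 10.9 and 10.8 RPKM in those of Cd offspring. After stimulation it was read at 37.8 and 41.5 RPKM in control and at 34.5 and 38.4 RPKM in Cd offspring, so that stimulated and unstimulated libraries were far apart and the stimulated control and Cd libraries overlapped. The log2 change of Phgdh was 1.93 (SE 0.08, adjusted p = 9.24e-07) in control and 1.74 (SE 0.08, adjusted p = 1.46e-06) in Cd offspring.

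Psat1 (chr19:15905123-15925059), the aminotransferase of the next step, rose more. It was read at 10.3 and 11.1 RPKM in unstimulated control cells and at 10.6 and 10.3 RPKM in unstimulated Cd cells. In stimulated cells the values were 61.6 and 55.9 RPKM in control and 55.4 and 57.5 RPKM in Cd offspring, about the same range in both. The log2 change was 2.45 (SE 0.07, adjusted p = 3.02e-07) in control and 2.42 (SE 0.07, adjusted p = 3.37e-07) in Cd offspring, or 5.45-fold and 5.35-fold.

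Psph (chr5:129765558-129787443), the phosphatase that releases serine, had the lowest estimate of the 9 in both kinds of offspring, although its 95% interval in control offspring (0.81 to 1.22) overlaps those of Mthfd2 (0.98 to 1.42) and Tyms (0.90 to 1.93), so the order at the low end is not resolved. With a pseudocount of 1 RPKM Tyms was lower (0.885 against 0.955 in control offspring), and without replicate 6 of the unstimulated Cd cells Mthfd2 was lower in Cd offspring (0.943 against 1.04). Its levels were 10.5 and 9.30 RPKM in unstimulated control cells, 10.2 and 9.03 RPKM in unstimulated Cd cells, 19.8 and 20.3 RPKM in stimulated control cells and 18.2 and 19.3 RPKM in stimulated Cd cells. The change was 2.02-fold in control (log2 1.02, SE 0.09, adjusted p = 3.36e-05) and 1.94-fold in Cd offspring (log2 0.96, SE 0.09, adjusted p = 4.67e-05), so the 2-fold limit passed between them while the difference of the responses was only -0.06 (95% interval -0.35 to 0.23). Without replicate 7 of the unstimulated control cells the control estimate was 0.931, without replicate 7 of the stimulated control cells it was 0.999, and the call was lost. Leaving out replicate 6 of the unstimulated or of the stimulated Cd cells brought the Cd estimate past 2-fold, to 1.04 and to just over 1 on the log2 scale. The Psph gene overlaps the annotated span of Cct6a, a chaperonin subunit read at 64.0 to 205.3 RPKM, by 88 bases at its start. The strand used in counting is not given in the sources used here, and the part of the shared bases in the value of Psph was not tested.

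The hydroxymethyltransferases were among the strongest responders, with folds of 5.06 to 5.67 over both forms and both kinds of offspring. Shmt2 (chr10:127517123-127522444), the mitochondrial form, was the enzyme with the highest level. It was read at 22.4 and 22.7 RPKM in unstimulated control cells and at 25.9 and 21.8 RPKM in unstimulated Cd cells. Stimulated cells held 122.6 and 121.1 RPKM in control and 119.1 and 122.4 RPKM in Cd offspring, overlapping ranges. The log2 change was 2.43 (SE 0.08, adjusted p = 4.66e-07) in control and 2.34 (SE 0.08, adjusted p = 5.94e-07) in Cd offspring. At its far end Shmt2 overlaps Ndufa4l2, read at 0.0506 to 0.662 RPKM, by 32 bases.

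Shmt1 (chr11:60788897-60811265), the cytosolic form, was the lowest of the 9 after Tyms in unstimulated cells. It stood at 6.14 and 7.87 RPKM in control and at 7.71 and 6.89 RPKM in Cd offspring, from 228 to 309 reads a library. The replicates of the unstimulated control cells differed here by more than their counting errors of 6.62% and 6.14%. With stimulation Shmt1 reached 41.2 and 38.7 RPKM in control and 37.2 and 38.5 RPKM in Cd offspring, the largest fold of the 9 in control offspring (5.67-fold, log2 2.50, SE 0.12, adjusted p = 1.78e-06). In Cd offspring the log2 change was 2.36 (SE 0.12, adjusted p = 2.39e-06). The 95% intervals of the responses of Shmt1, Psat1 and Shmt2 overlap in both kinds of offspring, so their order is not resolved.

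**Figure D2:**
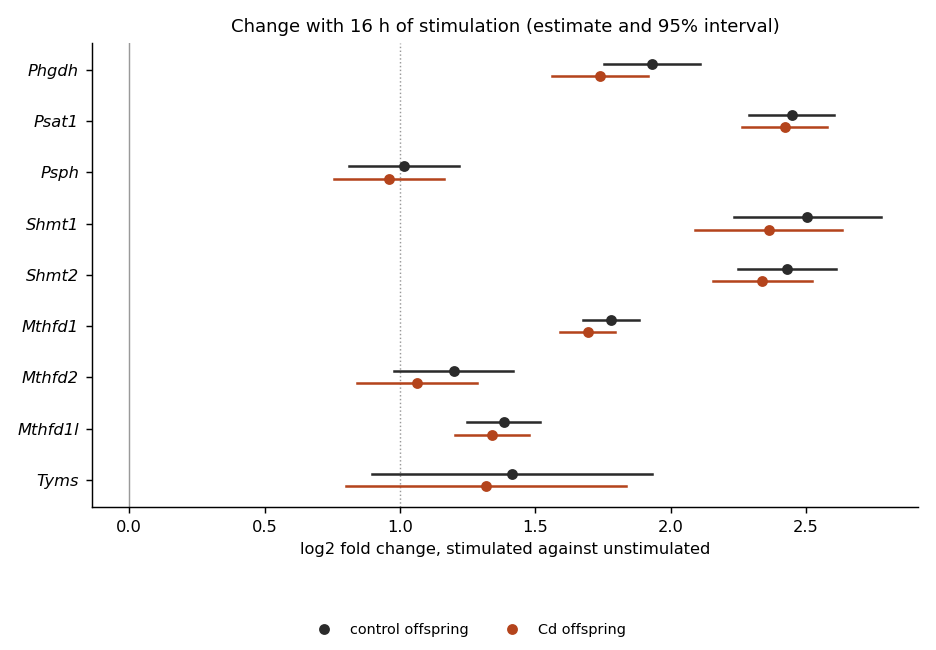
Log2 fold change of each enzyme with 16 hours of stimulation (horizontal axis) in control and Cd offspring, as limma estimate (point) and 95% interval (bar); the solid line marks no change and the dotted line 2-fold. All intervals lie above 0, those of Shmt1, Shmt2 and Psat1 lie above 2, and those of Psph, Mthfd2 and Tyms include 1.

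The folate-interconverting enzymes rose less than the hydroxymethyltransferases. Mthfd1 (chr12:76254406-76319820) carries the dehydrogenase, cyclohydrolase and formyltetrahydrofolate synthetase activities of the cytosol. In unstimulated cells it was the steadiest between replicates, with 20.5 and 20.7 RPKM in unstimulated control cells and 20.4 RPKM in both unstimulated Cd libraries. Stimulated cells held 71.3 and 70.6 RPKM in control and 65.4 and 67.1 RPKM in Cd offspring, without overlap. The log2 change with stimulation was 1.78 (SE 0.04, adjusted p = 2.49e-07) in control and 1.69 (SE 0.04, adjusted p = 2.97e-07) in Cd offspring.

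Mthfd2 (chr6:83305704-83326011), the mitochondrial dehydrogenase and cyclohydrolase, started from a level like that of Mthfd1. It was read at 20.7 and 19.2 RPKM in unstimulated control cells and at 19.3 and 22.8 RPKM in unstimulated Cd cells. Stimulated libraries held 44.8 and 46.9 RPKM in control and 41.5 and 46.7 RPKM in Cd offspring, again above every unstimulated library. The change was 2.29-fold in control (log2 1.20, SE 0.09, adjusted p = 2.23e-05) and 2.09-fold in Cd offspring (log2 1.06, SE 0.09, adjusted p = 4.23e-05). The Cd estimate fell to 0.943 without replicate 6 of the unstimulated Cd cells and to 0.979 without replicate 7 of the stimulated Cd cells, and was then not called.

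Mthfd1l (chr10:3972892-4167081), the mitochondrial formyltetrahydrofolate synthetase that yields formate for the cytosol, was read at 16.5 and 15.4 RPKM in unstimulated control and 16.8 and 15.9 RPKM in unstimulated Cd cells. Its stimulated values were 41.0 and 42.4 RPKM in control and 41.4 and 41.6 RPKM in Cd offspring, the Cd values lying inside the control range. The log2 change was 1.38 (SE 0.06, adjusted p = 1.17e-06) in control and 1.34 (SE 0.06, adjusted p = 1.42e-06) in Cd offspring.

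Tyms (chr5:30038546-30073645), thymidylate synthase, was far below the other enzymes. It stood at 0.701 and 1.02 RPKM in unstimulated control cells and at 0.744 and 0.985 RPKM in unstimulated Cd cells, from 48, 63, 55 and 77 reads, where the counting error alone is 11.4% to 14.4% of the value. Stimulated libraries held 2.62 and 2.23 RPKM in control and 2.29 and 2.28 RPKM in Cd offspring, from 155 to 221 reads. The log2 change was 1.41 (SE 0.22, adjusted p = 0.000857) in control and 1.32 (SE 0.22, adjusted p = 0.00126) in Cd offspring. With a pseudocount of 1 RPKM the estimates were 0.885 and 0.82 and not called, the values being near that pseudocount. Among all genes tested, the mean level of Tyms was at percentile 14.1, and that of Shmt2 at percentile 92.7.

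RPKM scales reads by the length counted for each gene, so levels are set side by side here as a description. The length of the transcripts present was not measured, so the order between genes is approximate. In unstimulated control cells the order was Shmt2, Mthfd1, Mthfd2, Mthfd1l, Psat1, Phgdh, Psph, Shmt1 and Tyms, and neighbours whose replicates overlapped were Mthfd1 and Mthfd2, Psat1 and Phgdh, and Phgdh and Psph. In stimulated control cells it was Shmt2, Mthfd1, Psat1, Mthfd2, Mthfd1l, Shmt1, Phgdh, Psph and Tyms, with overlap only between Mthfd1l and Shmt1 and between Shmt1 and Phgdh. Psat1 and Shmt1 moved up the order. The order in stimulated Cd cells was the same as in stimulated control cells, although Mthfd2 and Mthfd1l now overlapped.

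Ratios of levels within a library describe the same shifts. The ratio of Psat1 to Phgdh was 0.956 to 1.11 in the 4 unstimulated libraries and 1.35 to 1.63 in the 4 stimulated libraries. Psph to Phgdh went the other way, from 0.838 to 0.986 down to between 0.491 and 0.527. Among the mitochondrial enzymes, the ratio of Mthfd2 to Shmt2 was 0.744 to 1.05 in unstimulated and 0.348 to 0.387 in stimulated cells. The ratio of Mthfd1l to Mthfd1 fell from a range of 0.745 to 0.823 to a range of 0.575 to 0.634. In these 4 ratios the stimulated and unstimulated libraries did not overlap. The ratio of mitochondrial Shmt2 to cytosolic Shmt1 was 2.89 to 3.64 in unstimulated and 2.98 to 3.20 in stimulated libraries, and these overlapped. The ratios are descriptions of the values tested above and were not tested again.

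**Figure D3:**
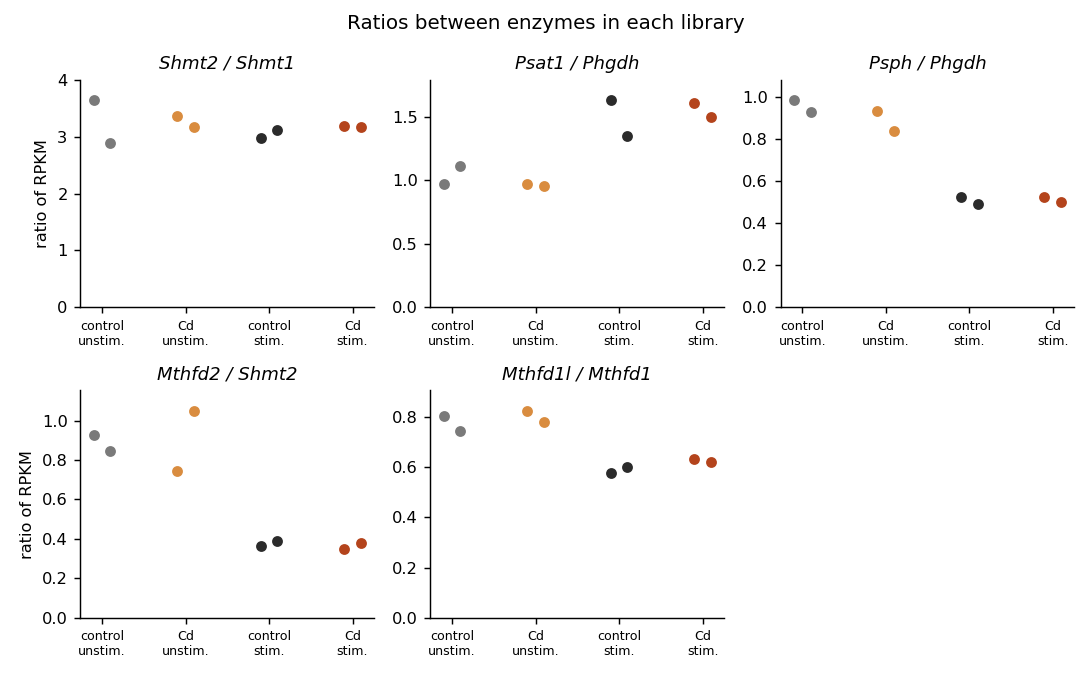
Ratios of RPKM between pairs of enzymes (vertical axis, starting at 0) in each library of the 4 groups. Psat1 to Phgdh is higher and Psph to Phgdh, Mthfd2 to Shmt2 and Mthfd1l to Mthfd1 are lower in the 4 stimulated libraries than in the 4 unstimulated ones, whereas Shmt2 to Shmt1 overlaps.

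The other genes of the surrounding pathways responded less uniformly. Over 8 metabolic lists, 59 of 72 other genes were tested, and 30 were called higher and 1 lower in control offspring (26 and 0 in Cd offspring), with a median log2 change of 1.02 in control. Of the other cytosolic folate enzymes, 2 of 5 tested were called higher, among them the folylpolyglutamate synthase Fpgs (log2 1.12, adjusted p = 0.000405). Fpgs missed 2-fold without replicate 7 of the stimulated control cells, at 0.978. Neither of the 2 other mitochondrial folate genes tested was called, Mthfd2l with 0.39 (adjusted p = 0.139) and Mtfmt with 0.34 (adjusted p = 0.00611). The mitochondrial genes Aldh1l2, Dmgdh and Sardh and the glycine decarboxylase Gldc were below the filter.

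Outside pyrimidine synthesis, the largest changes among the other genes were in transport and glycine cleavage. In the transport list 6 of 11 genes tested were called higher in control offspring. Slc1a4, which carries serine and alanine, had the largest change of the list, from 0.511 ± 0.038 to 4.41 ± 0.159 RPKM (SD, n = 2, log2 2.88, adjusted p = 9.23e-06). Slc19a1, the reduced folate carrier, rose from 6.80 ± 0.063 to 37.3 ± 0.489 RPKM (log2 2.44, adjusted p = 3.81e-07). In the glycine cleavage list 1 of 3 was called, Gcsh, the carrier protein of the complex, with 2.48 (adjusted p = 6.41e-07). In the methionine cycle list 4 of 9 were called, led by Ahcy (log2 1.28, adjusted p = 9.88e-06), which splits S-adenosylhomocysteine, and the methionine synthase reductase Mtrr (log2 1.04, adjusted p = 5.38e-06).

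The lists for nucleotide synthesis were called in part. In the purine list 8 of 12 genes were called higher, with Pfas (log2 2.22, adjusted p = 4.46e-07) and Gart (log2 1.49, adjusted p = 6.41e-07), which uses formyl folate, as the largest. In the pyrimidine and deoxynucleotide list 9 of 17 were called higher and 1 lower. Dctd, the deaminase that supplies Tyms with its substrate, had the largest change (log2 3.19, adjusted p = 2.52e-06), followed by the CTP synthase Ctps (log2 2.17, adjusted p = 4.49e-07). The mitochondrial thymidine kinase Tk2 fell by 1.04 on the log2 scale (adjusted p = 7.04e-06), and without replicate 6 of the unstimulated or of the stimulated control cells its change was -0.997 or -0.977, under 2-fold. Of the S phase genes 9 of 15 were called higher, whereas 6 of 10 mitosis genes were below the filter and 1 of the 4 tested was called higher. Myc, a factor that is known to promote expression of many of these genes, rose from 34.1 ± 2.50 to 192.2 ± 7.97 RPKM in control offspring (SD, n = 2, log2 2.49, adjusted p = 1.44e-06). Atf4, known as a factor of serine synthesis genes, changed by -0.63 (adjusted p = 0.00675), less than 2-fold and thus not called. These are RNA levels, and the part of either factor in the response of the enzymes was not tested.

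**Figure D4:**
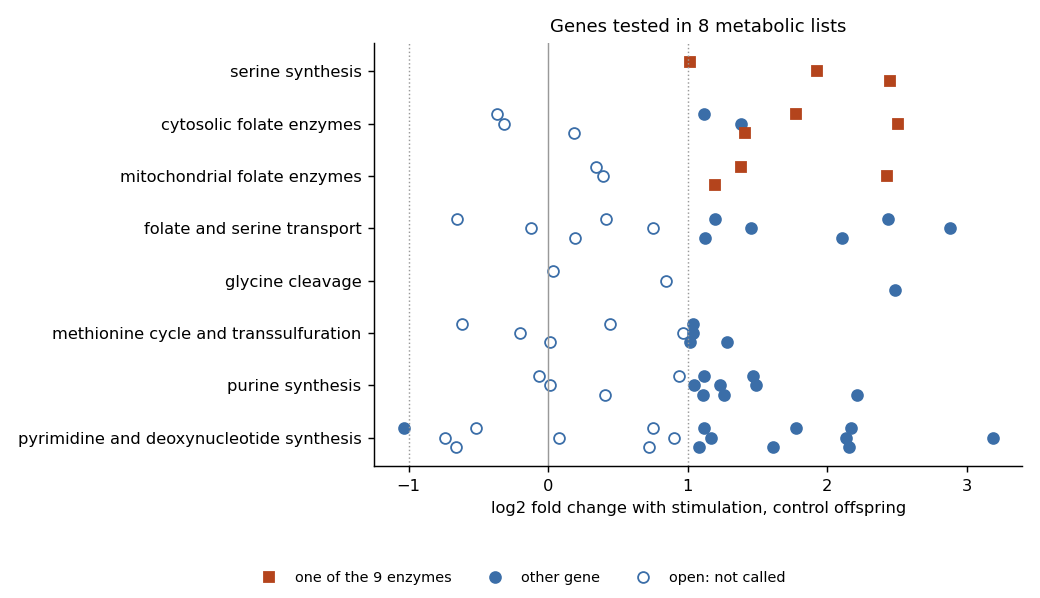
Log2 fold change with stimulation in control offspring (horizontal axis) of each gene tested in 8 metabolic lists (rows); squares are the 9 enzymes, circles other genes, filled symbols were called and open symbols were not. The 9 enzymes all lie past 2-fold (dotted line at 1), among other genes that run from -1.04 to 3.19.

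The genes with the most similar profiles were found by the distance between centred log2 profiles over the 8 libraries (root mean square, in log2 units), a description without a test, since most of it is the response to stimulation. The nearest gene to Shmt1 was Psat1 (0.078). Nearest to Psat1 was 1110038B12Rik (0.0396). Shmt2 had Ppa1 (0.0592), Myc (0.0608) and Ckap4 (0.0688) as its nearest genes. Mthfd1 was nearest to Mybbp1a (0.0276), Mthfd1l to Agpat5 (0.0274), Mthfd2 to Ldha (0.0424), Phgdh to Cd320 (0.0578) and Psph to Utp11 (0.0404). For Tyms the nearest gene was Rfc4 (0.0809), followed by Cbx5 (0.0984). Except for Shmt1, the nearest gene was thus not one of the members. The distance to the nearest other member ran from 0.078 for Shmt1 and Psat1 to 0.196 for Tyms.

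Between Cd and control offspring, none of the 9 enzymes was called at an adjusted p under 0.05. In unstimulated cells 0 of 9 were called, against 0.896% of genes (113 of 12605), with adjusted p of 0.690 or more. The log2 differences ran from -0.04 for Psph to 0.08 for Shmt2 with a median of 0.04, and 6 of 9 were above 0. Libraries of the groups overlapped except for Phgdh, higher in both Cd libraries, and Mthfd1, lower in both, against 22.3% of all genes higher and 20.0% lower without overlap. For the enzymes other than Tyms the 95% intervals lay between -0.25 and 0.34, and for Tyms the interval was -0.50 to 0.53.

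In stimulated cells 0 of 9 were called, against 0% of genes: limma called none of 12605 genes, 414 had an unadjusted p under 0.05, and limma voom on the recovered reads also called 0. All 9 differences were below 0, from -0.12 for Phgdh to -0.01 for Mthfd1l, with a median of -0.08, where 54.0% of all genes were below 0 and their median was -0.01. The sign was not particular to the enzymes. All 15 S phase genes were also below 0 (median -0.08). Of the 59 other metabolic genes tested, 44 were below 0 and 15 above (median -0.04). Shmt1, Mthfd1 and Psph were lower in both Cd libraries than in both control libraries, which held for 20.6% of all genes. Mthfd1 had the narrowest interval (log2 -0.10, 95% interval -0.20 to 0.003, adjusted p = 1), or 0.934-fold. Intervals of the enzymes other than Tyms lay between -0.35 and 0.20, and that of Tyms was -0.59 to 0.44. With 2 libraries against 2, an exact two-sided permutation test of a single gene cannot go below p = 0.333.

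For the difference in response to stimulation (Cd minus control), 0 of 9 were called, against 0.357% of genes (45 of 12605). The 9 differences were all below 0, from -0.19 for Phgdh (95% interval -0.44 to 0.06, adjusted p = 0.552) to -0.03 for Psat1, with a median of -0.09, where 52.9% of all genes were below 0. Of the 15 S phase genes, 11 were below 0 and 4 above, and of the 59 other metabolic genes, 33 and 26. This comparison uses the same libraries as those above and is not a second observation of the same sign. When single libraries were left out, the sign was lost for 5 of the 9 enzymes in stimulated cells and for 6 of the 9 in the difference in response. Changes of 2-fold in either direction lie outside the interval of every enzyme in each of the 3 comparisons.

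**Figure D5:**
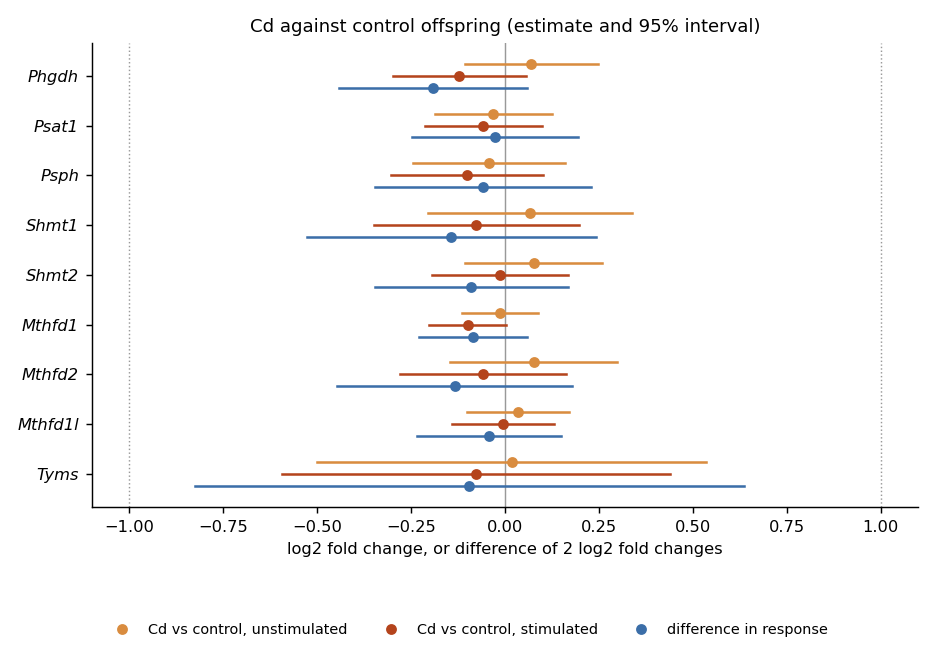
Differences between Cd and control offspring (horizontal axis, log2 scale) for each enzyme in unstimulated cells, in stimulated cells and in the response to stimulation, as limma estimate (point) and 95% interval (bar); dotted lines mark 2-fold. All intervals include 0 and none reaches 2-fold, Tyms having the widest.

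Among the other metabolic genes, 1 of 59 was called between Cd and control offspring in unstimulated cells and 0 in stimulated cells or for the difference in response. It was Nme2, a nucleoside diphosphate kinase, at 71.9 ± 2.14 RPKM in control and 53.3 ± 0.734 RPKM in Cd offspring (SD, n = 2, log2 -0.43, adjusted p = 0.0125). Its adjusted p was 0.0720 without replicate 6 and 0.0644 without replicate 7 of the unstimulated control cells. The close relative Nme1 may share reads with it. Of the marker lists, Il2 was the activation marker called in unstimulated cells, at 0.610 ± 0.131 RPKM in control and 0.290 ± 0.0258 RPKM in Cd offspring (log2 -0.86, adjusted p = 0.0409). The Il2 call held under only 2 of 14 alternatives, with adjusted p from 0.0272 to 0.366. It was lost without any 1 library other than replicate 7 of the unstimulated control cells, and the estimate was -0.318 with a pseudocount of 1 RPKM. Myc differed by 0.09 in unstimulated cells and -0.01 in stimulated cells, and Atf4 by -0.04 and -0.07, with adjusted p of 0.733 or more.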

How the data were processed

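RNA sequencing values of 8 libraries, 2 for each of 4 groups, were analysed, with groups taken from the sample labels. The authors mapped the reads with Subread (build mm10) and made gene counts with featureCounts. Versions and strand setting are not given in the sources used here. The deposited values are on a log2 scale, log2(RPKM + 1) + 0.0001, as read from the values. They were transformed back to RPKM. Because low genes step in whole reads, the reads of each gene and the total of each library could be worked out, which gives the depth of each value. The planned test for RPKM was kept: log2(RPKM + 0.1) of genes with a mean of at least 0.5 RPKM was modelled by 4 group means in R 4.3.3 with limma 3.58.1 and a trend in the prior spread (4 residual degrees of freedom), with Benjamini-Hochberg adjustment. Calls for stimulation needed more than 2-fold and an adjusted p below 0.01. Calls for Cd and for the difference in response needed an adjusted p below 0.05, with no fold limit. The fit was tested on simulated data. The members, lists and tests were chosen with earlier results of these data known, and the GC box, CCAAT box and NRF1-type motif after the members' values were seen. Named genes are all members, the 2 list genes with the largest increase and the largest decrease called in control offspring per metabolic list, list genes called for Cd, Atf4, Myc and the nearest profiles. Some genes picked in this way are left out here. The alternatives were a pseudocount of 1, no filter, median-of-ratios scaling, replicate blocks, no trend, limma voom on recovered reads and each library left out. Tables and plots were made with Python 3.11.15, pandas 2.3.3 and matplotlib 3.10.9.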

Additional observations from a re-analysis of the deposited data

How the results depend on the processing

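Every stimulation result of the 9 enzymes kept its direction under every alternative; over all alternatives 260 values kept their call, 8 lost it and 2 gained it, all because an estimate crossed 2-fold. The control estimate of Psph was 0.955 with a pseudocount of 1 and 0.941 with median-of-ratios scaling, and Tyms had 0.885 in control and 0.82 in Cd offspring with that pseudocount. Enzymes called in control offspring numbered 8 to 9 with each library left out and 7 with a pseudocount of 1, and in Cd offspring 7 to 9 and 7. When a library was left out, the remaining one of its group was assumed to vary like the other groups. Of the other genes named for stimulation, Mtrr was under 2-fold with a pseudocount of 1 and with median-of-ratios scaling (0.961 in control under both) and, in Cd offspring, without replicate 7 of the stimulated Cd cells (0.981), and Tk2 with a pseudocount of 1 (-0.993).

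No enzyme was called for Cd or for the difference in response under any alternative, but 29 of these small differences changed sign. With median-of-ratios scaling the stimulated difference of Mthfd1l was 0.00563 and the response difference of Psat1 was 0.00257. With each library left out in turn, the unstimulated difference ran from -0.111 to 0.243 for Shmt1, -0.0483 to 0.201 for Shmt2, -0.0145 to 0.0856 for Mthfd1l, -0.0447 to 0.197 for Mthfd2, -0.0838 to 0.0223 for Psat1, -0.128 to 0.0437 for Psph and -0.221 to 0.256 for Tyms. In stimulated cells it ran from -0.0329 to 0.00622 for Shmt2, -0.0305 to 0.0174 for Mthfd1l, -0.143 to 0.0266 for Mthfd2, -0.126 to 0.0119 for Psat1 and -0.189 to 0.0351 for Tyms. The difference in response ran from -0.32 to 0.0343 for Shmt1, -0.215 to 0.035 for Shmt2, -0.0922 to 0.00797 for Mthfd1l, -0.0957 to 0.0427 for Psat1, -0.145 to 0.0275 for Psph and -0.333 to 0.144 for Tyms.

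Counts over all genes for Cd in unstimulated cells, 113 in the fit reported, were 14 with no trend, 65 with no filter, 211 with limma voom and 19 to 105 with each library left out, with 19 without replicate 6 and 67 without replicate 7 of the unstimulated control cells and 61 without either stimulated Cd library. For the difference in response, 45, they were 4, 28, 112 and 2 to 63, with 2 without replicate 7 of the stimulated Cd cells, 3 and 28 without replicates 6 and 7 of the stimulated control cells and 27 without replicate 6 of the unstimulated control cells. The cause was not tested. In stimulated cells no filter gave 9 calls, no trend 2, and leaving out 1 library 0 to 3. Deviations of same-numbered libraries had r from -0.122 to 0.063 over all pairs of groups (8681 genes). Between unstimulated and stimulated cells r was 0.063 in control and -0.044 in Cd offspring. These values rest on 1 difference between replicates per group and cannot settle whether same-numbered libraries share an animal. The fit reported used no pairing, whereas the paper's qPCR comparisons of stimulated with unstimulated cells used paired t-tests. With a replicate block by number, 9 enzymes were called in control and 8 in Cd offspring, as without it, and 76 genes were called for Cd in unstimulated cells and 36 for the difference in response. Nme2 had an adjusted p of 0.0887 with no trend. The block also took away the call of Il2 (adjusted p = 0.0840), as did 11 of the other 13 alternatives. With a block of control or Cd and number together, no stimulation call of the enzymes changed, and 25 genes were called for the difference. Depth limits Tyms most, whose intervals allow differences of up to 0.59 below control in stimulated cells.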
